A study of Mus musculus with 6 samples.

Results

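The immunoglobulin gene segments are the rows of the liver expression table whose deposited biotype marks them as an immunoglobulin constant (C), variable (V), joining (J) or diversity (D) gene, with pseudogenes left out. They numbered 268 of 54086 features: 13 C, 222 V, 14 J and 19 D genes. Reads were found on 152 of the 268 in at least 1 library, and 116 had none. The 152 were 12 C, 133 V and 7 J genes, while none of the 19 D genes had a read.

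An antibody is built from heavy and light chains, and each B cell makes its chains by joining 1 V, 1 J and, for the heavy chain, 1 D segment in its own DNA. The C gene downstream then sets the class of the antibody: IgM and IgD in B cells that have not switched, and IgG, IgE or IgA after class switching. Light chains are kappa or lambda. Plasma cells, the antibody-secreting descendants of B cells, carry far more of these transcripts than resting B cells. Hepatocytes do not rearrange these genes, and in liver the transcripts come from resident or circulating lymphoid cells. The liver also takes up IgA from the blood and passes it into bile.

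The 6 libraries were made from whole liver of mice labelled HKO, with a hepatocyte-specific knockout of Mettl3 (n = 3), and of Mettl3 flox/flox mice (n = 3). The series text gives an age of 8 weeks for all mice, and all ate normal chow. METTL3 is the enzyme that deposits N6-methyladenosine on mRNA. The labels give neither the Cre driver nor the sex or strain, and do not say whether each library is a separate mouse. A p-value here therefore measures the spread between libraries, which may be technical. Values are FPKM, read pairs per kilobase of a gene after scaling for depth.

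Values per library are given here in the order of the replicate numbers. Mettl3 itself measured 2.45, 2.14 and 2.06 FPKM in the HKO libraries, against 1.88, 2.17 and 1.98 FPKM in the flox/flox libraries. The gene-level value is no check of the labels, since exons outside the deletion and other cell types can add to it, and each direction given here rests on the labels. Totals of 16637541 to 17993545 reads in HKO and 16529358 to 18556076 reads in flox/flox libraries were rebuilt from the FPKM. A single read on 1 kb of gene was worth 0.0448 to 0.0548 FPKM in HKO and 0.0651 to 0.0677 FPKM in flox/flox libraries. The FPKM summed to 318212 to 360226 in HKO and 453837 to 542601 in flox/flox libraries. Scaling each library by its own total therefore moved the median log2 difference of all tested features to 0.26, against -0.06 with the deposited scaling. In whole liver, a change in the number of cells that carry a transcript and a change in the RNA per cell cannot be told apart.

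Immunoglobulin segments took more of the sequence in every HKO library. They held 1143, 1525 and 1128 reads in HKO replicates 1 to 3, or 67.7, 91.7 and 62.7 RPM (reads scaled to the library's own total). The flox/flox libraries held 280, 306 and 236 such reads, or 15.1, 18.5 and 14.1 RPM. The lowest HKO library had over 3 times the level of the highest flox/flox library. Igkc and Igha carried 27 to 501 reads per library, and nearly all V, J and D genes carried few or none.

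Differences per gene were tested with limma on log2(FPKM + 1), where a feature averaged 1 FPKM or more across all libraries, and called at a Benjamini-Hochberg adjusted p under 0.05. Of the 268 members 9 passed this filter: the C genes Igkc, Igha, Ighm and Iglc1, the V genes Ighv1-81, Igkv1-117 and Igkv1-110, and the J genes Igkj2 and Igkj4. The other 259 lay below it. Higher calls numbered 3 of 9 (Igkc, Igha and Igkj4), no lower call was made, and 6 did not pass. Igkj4, Iglc1, Ighv1-81, Igkv1-117 and Igkv1-110 averaged under 1 FPKM in flox/flox livers and reached the filter only through the HKO values, so the count of calls among the 9 is no measure of the members as a set. Among all 11086 features tested, 12.8% were called, 5.95% higher and 6.86% lower, and 16.8% were higher in every HKO than in every flox/flox library. At an unadjusted p under 0.05 by limma there were 6 of the 9. The same limit holds for this count, and the share of all features at that threshold was not counted.

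Igkc, the only kappa constant gene (ENSMUSG00000076609, GRCm38.p6 chr6:70726435-70726966, plus strand), was the most abundant member. It reached 24.5, 32.3 and 17.0 FPKM in the HKO libraries (252, 314 and 202 reads), against 6.11, 6.24 and 3.33 FPKM in the flox/flox libraries (48, 51 and 27 reads). The groups did not overlap, and the mean was 4.71 times as high in HKO (24.6 ± 7.66 FPKM) as in flox/flox livers (5.23 ± 1.64 FPKM; SD, n = 3 each). The log2 fold change, on the log2(FPKM + 1) scale, was 2.03 (SE 0.29, 95% interval 1.35 to 2.72, limma adjusted p = 0.0172). Without HKO replicate 1, HKO replicate 2 or flox/flox replicate 3 the limma adjusted p was 0.0632, 0.0547 or 0.0561, with log2 fold changes of 2.01, 1.82 and 1.79.

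Of the heavy-chain constant genes Igha and Ighm were tested, and Igha, which encodes the constant region of IgA, rose (ENSMUSG00000095079, chr12:113254830-113260236, minus strand). Its level was 7.30, 10.3 and 4.70 FPKM in the HKO libraries (377, 501 and 280 reads), against 1.42, 1.20 and 0.714 FPKM in the flox/flox libraries (56, 49 and 29 reads). Every HKO value lay above every flox/flox value, with means of 7.43 ± 2.79 FPKM in HKO and 1.11 ± 0.361 FPKM in flox/flox livers (SD, n = 3 each). The ratio of means was 6.69 and the log2 fold change 1.96 (SE 0.26, 95% interval 1.33 to 2.58, limma adjusted p = 0.0165). The limma adjusted p was 0.0617 without HKO replicate 1 and 0.0562 without flox/flox replicate 3.

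Ighm, the constant gene of IgM and the class that unswitched B cells carry, did not follow Igha (ENSMUSG00000076617, chr12:113418558-113422730, minus strand). It had 2.33, 4.41 and 4.49 FPKM in the HKO libraries (85, 152 and 189 reads), against 2.05, 4.32 and 4.32 FPKM in the flox/flox libraries (57, 125 and 124 reads). The ranges overlapped, and replicate 1 was the lowest of its group in both genotypes. On the log2 scale the difference came to 0.07 (SE 0.29, 95% interval -0.62 to 0.76, adjusted p = 0.897 by limma). The interval does not exclude a change of either sign, and the sign turned when flox/flox replicate 1 (-0.20), HKO replicate 2 (-0.05) or HKO replicate 3 (-0.06) was left out.

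The 4 IgG genes in the table stayed under the filter of 1 FPKM and were not tested singly. Ighg2c, for IgG2c, had 1.40, 1.49 and 1.86 FPKM in HKO livers (36, 36 and 55 reads) and 0.0511, 0.295 and 0.0495 FPKM in flox/flox livers (1, 6 and 1 reads). Its lowest HKO value was more than 4 times its highest flox/flox value. The ratio of means, 12, rests on 127 reads over the HKO and 8 reads over the flox/flox libraries. Ighg2b, for IgG2b, had 1.31, 0.736 and 1.24 FPKM in HKO livers (68, 36 and 74 reads) and 0.405, 0.365 and 0.172 FPKM in flox/flox livers (16, 15 and 7 reads), again with no overlap. Of the 50-base stretches of Ighg2c 5.49% also occur in Ighg2b, and none in a further annotated gene, so few of their reads could be exchanged between them. Ighg1, for IgG1, was near the floor in both genotypes, with 3, 4 and 8 reads in HKO and 2, 9 and 0 reads in flox/flox libraries. Ighg3 had at most 6 reads in any library.

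Ighd, the constant gene of IgD, which naive B cells carry beside IgM, varied strongly among the flox/flox libraries. It stood at 1.20, 1.36 and 0.778 FPKM in HKO livers (44, 47 and 33 reads) and at 0.962, 0.0686 and 0.242 FPKM in flox/flox livers (27, 2 and 7 reads). The groups overlapped through flox/flox replicate 1. Ighe, for IgE, had 1 read in HKO replicate 3 and none in the other 5 libraries, where 0 reads allow up to 3.

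The lambda light chains were rare next to kappa. Iglc1 stood at 1.48, 3.74 and 0.790 FPKM in HKO livers (13, 31 and 8 reads) and at 0.746, 0.717 and 0.724 FPKM in flox/flox livers (5 reads each). The groups were separated by a small margin, and the limma test did not call the gene (log2 fold change 0.68, SE 0.34, adjusted p = 0.209). Iglc2 had 7, 10 and 1 reads in HKO and 1, 0 and 2 reads in flox/flox libraries. Iglc3 had 0, 5 and 5 reads in HKO and 0, 0 and 1 reads in flox/flox libraries, and Iglc4 had none anywhere.

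Counted together, 5 of the 13 C genes (Igkc, Igha, Ighg2c, Ighg2b and Iglc1) were higher in every HKO than in every flox/flox library, and none was lower in every one. Among all 25877 features with any read, 14.8% were higher in every HKO library. Kappa and lambda C genes summed to 26.5, 37.6 and 18.4 FPKM in HKO and to 6.97, 6.96 and 4.42 FPKM in flox/flox libraries. The heavy C genes summed to 13.6, 18.5 and 13.3 FPKM in HKO and to 4.94, 6.49 and 5.52 FPKM in flox/flox libraries. The sum of all C genes was 42.6 ± 12.4 FPKM in HKO and 11.8 ± 1.76 FPKM in flox/flox livers (SD, n = 3 each), a log2 ratio of 1.86. The groups did not overlap, which gives a two-sided exact permutation p of 0.1, the smallest that 3 against 3 libraries allow. Over the 9 single values tested with exact permutations the Benjamini-Hochberg adjusted p was 0.129, as it was for each of the 7 with p = 0.1 (the C and V sums, the V genes detected, the IgA and IgM shares, and the 2 measures of V gene use).

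**Figure D1:**
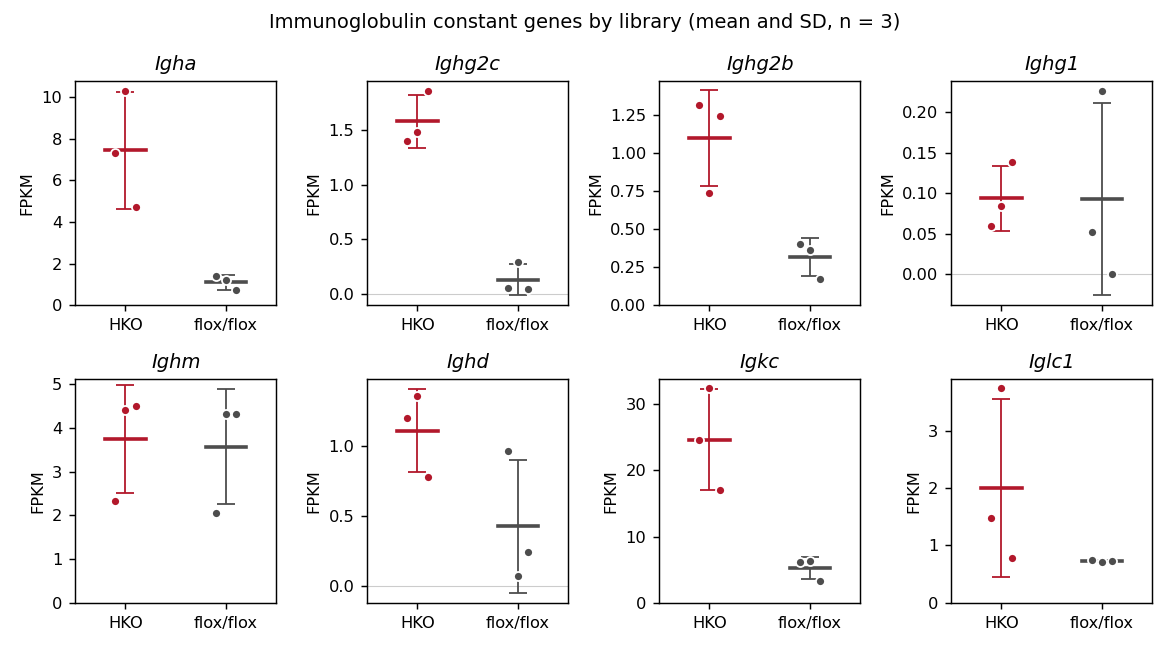
Expression of 8 immunoglobulin constant genes in FPKM, each point 1 library, with the mean and SD of 3 libraries for HKO and flox/flox livers. Igkc, Igha, Ighg2c, Ighg2b and Iglc1 were higher in every HKO library, while Ighm overlapped between the genotypes (3.75 ± 1.23 FPKM in HKO, 3.56 ± 1.31 FPKM in flox/flox).

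The mixture of antibody classes was compared as each class's share of the heavy constant FPKM, which does not depend on how a library is scaled. Igha made up 53.7%, 55.6% and 35.5% of it in HKO replicates 1 to 3 and 28.8%, 18.4% and 12.9% in flox/flox replicates 1 to 3. Ighm made up 17.1%, 23.9% and 33.9% in HKO and 41.4%, 66.5% and 78.2% in flox/flox libraries. IgA was the largest class in each HKO library and IgM the largest in each flox/flox library, in HKO replicate 3 by a small margin. By share of reads the order was the same, with a near tie in flox/flox replicate 1 (IgM 35.8%, IgA 35.2%). The IgA share averaged 48.3 ± 11.1% in HKO and 20.05 ± 8.05% in flox/flox livers, and the IgM share 25.0 ± 8.43% in HKO and 62.0 ± 18.8% in flox/flox livers (SD, n = 3 each; two-sided exact permutation p = 0.1 for both). Shares are tied to each other: a higher Igha level lowers the IgM share by arithmetic.

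The IgG genes made up 20.4%, 13.2% and 24.5% of heavy constant FPKM in HKO and 10.3%, 14.0% and 4.48% in flox/flox libraries. These shares overlapped, through HKO replicate 2 and flox/flox replicate 2 (two-sided exact permutation p = 0.2, adjusted p = 0.225), although the IgG sum itself did not (2.82 ± 0.409 FPKM in HKO, 0.556 ± 0.335 FPKM in flox/flox livers; SD, n = 3 each). IgD took 8.80%, 7.33% and 5.87% in HKO and 19.5%, 1.06% and 4.38% in flox/flox libraries. Lambda genes took 7.80%, 14.0% and 7.39% of the light constant FPKM in HKO and 12.3%, 10.3% and 24.5% in flox/flox libraries, with overlap (two-sided exact permutation p = 0.3, adjusted p = 0.3). The lambda shares of the flox/flox libraries rest on 5 to 8 lambda reads each.

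**Figure D2:**
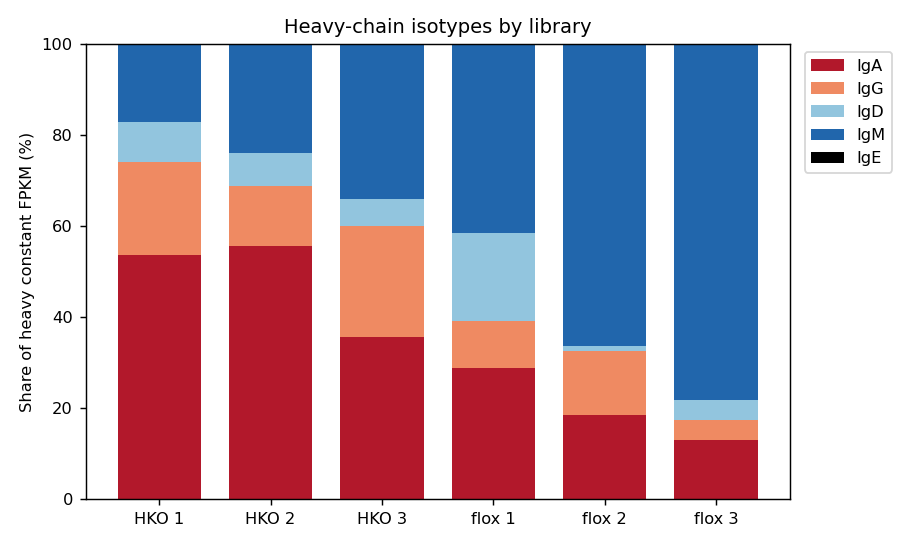
Share of each antibody class in the summed FPKM of the heavy-chain constant genes, in percent, as 1 stacked bar per library for HKO and flox/flox. Igha filled 35.5% to 55.6% of the HKO bars and 12.9% to 28.8% of the flox/flox bars, and Ighm 17.1% to 33.9% of the HKO and 41.4% to 78.2% of the flox/flox bars.

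The V genes encode the part of each chain that binds antigen, and each B cell clone uses 1 heavy and 1 light V gene. At chromosome 12 lie 115 heavy-chain V genes of the table, at chromosome 6 104 kappa V genes and at chromosome 16 3 lambda V genes, of which 64, 66 and 3 had a read in some library. V genes held 251, 369 and 264 reads in HKO and 67, 43 and 30 reads in flox/flox libraries. Their FPKM summed to 34.9, 54.7 and 32.1 in HKO and to 12.2, 7.55 and 5.32 in flox/flox libraries. These groups did not overlap, with means of 40.6 ± 12.3 FPKM in HKO and 8.37 ± 3.53 FPKM in flox/flox livers and a log2 ratio of 2.28 (SD, n = 3 each; two-sided exact permutation p = 0.1).

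Both large loci showed the same order. Heavy V genes summed to 15.7, 25.8 and 14.5 FPKM in HKO and to 6.07, 2.34 and 2.89 FPKM in flox/flox libraries. Kappa V genes summed to 17.4, 25.5 and 16.3 FPKM in HKO and to 5.47, 4.71 and 2.44 FPKM in flox/flox libraries. Set against the C genes, the kappa locus had 50.8, 56.1 and 66.8 V reads per 100 C reads in HKO and 64.6, 52.9 and 51.9 in flox/flox libraries, ranges that overlapped. The heavy locus had 17.8, 21.6 and 18.4 V reads per 100 C reads in HKO and 20.1, 6.28 and 9.47 in flox/flox libraries, again with overlap.

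More V genes were detected, with at least 1 read, in HKO libraries. They numbered 65, 89 and 73 in HKO replicates 1 to 3 and 23, 18 and 18 in flox/flox replicates 1 to 3 (75.7 ± 12.2 in HKO and 19.7 ± 2.89 in flox/flox livers; SD, n = 3 each; two-sided exact permutation p = 0.1). This count depends on how many V reads a library holds. When each library was reduced by calculation to 30 V reads, the smallest V total, the expected number of V genes was 18.6, 20.7 and 23.1 in HKO and 15.97, 15.6 and 18 in flox/flox libraries. The difference of means was then 4.27 genes, against 56 without this step. At 30 V reads the groups did not overlap, by a small margin (18.6 in HKO replicate 1, 18 in flox/flox replicate 3). At 10 V reads they overlapped (8.07 in HKO replicate 1, 8.18 in flox/flox replicate 3). Reducing the libraries to a common total of all reads changed little, leaving 64.4, 88.8 and 71.3 V genes in HKO and 22.1, 18 and 17.9 in flox/flox libraries.

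**Figure D3:**
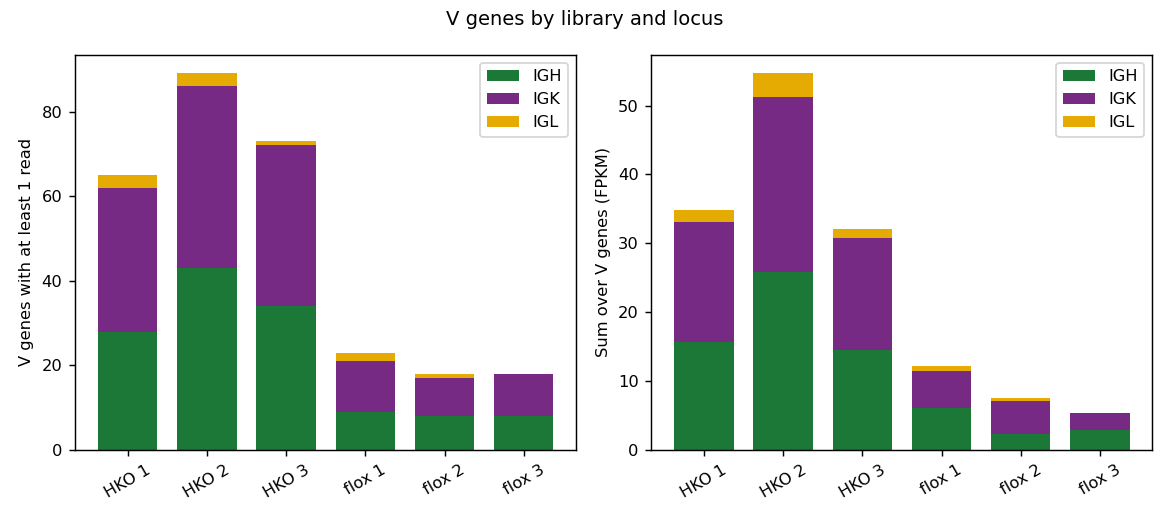
Number of V genes with at least 1 read and summed V gene FPKM in each HKO and flox/flox library, stacked by locus (heavy, kappa and lambda). The HKO libraries held 65 to 89 detected V genes and 32.1 to 54.7 FPKM, and the flox/flox libraries 18 to 23 genes and 5.32 to 12.2 FPKM.

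**Figure D4:**
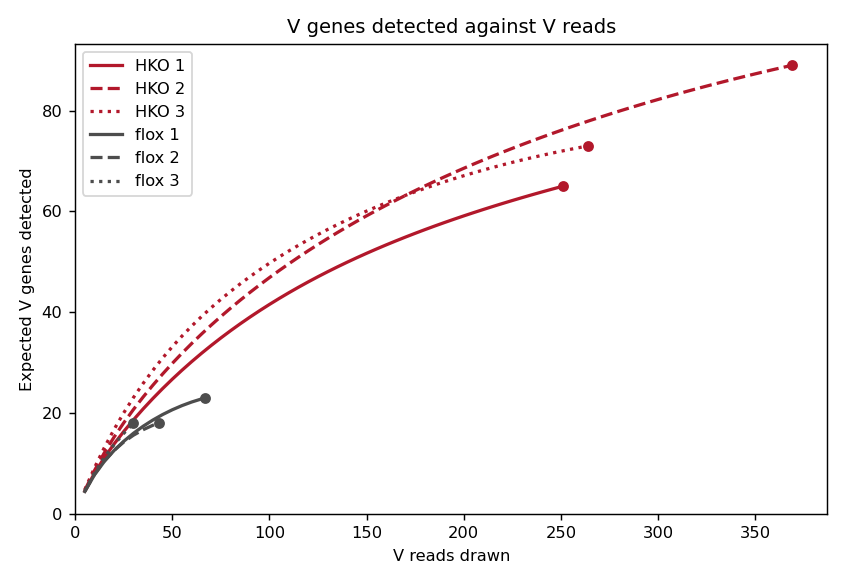
Expected number of V genes detected against the number of V reads drawn from each library, 1 line per library for HKO and flox/flox. At 30 V reads the HKO lines stand at 18.6 to 23.1 genes and the flox/flox lines at 15.6 to 18 genes.

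How evenly V genes were used was described in 3 ways. The effective number of V genes, the exponential of the Shannon entropy of their FPKM shares, was 32.7, 46.5 and 53.8 in HKO and 17.0, 15.2 and 15.0 in flox/flox libraries. The 10 highest V genes of a library took 55.9%, 49.9% and 38.1% of V FPKM in HKO and 72.0%, 76.7% and 73.5% in flox/flox libraries. Both measures separated the genotypes (two-sided exact permutation p = 0.1 for each, n = 3 each), and both move with the number of V reads. A measure that does not, the chance that 2 V reads of a library come from different genes, was 94.3%, 96.2% and 98.0% in HKO and 93.7%, 94.2% and 95.2% in flox/flox libraries, and it overlapped.

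Of the 133 V genes with a read, 39 had reads in both genotypes, 91 in HKO libraries alone and 3 in flox/flox libraries alone. More reads over the HKO than over the flox/flox libraries were found for 119 of the 133 (89.5%), against 67.8% of the 14791 features in the table with any read and a mean under 1 FPKM. Higher in every HKO library were 18 V genes, or 13.5% of the 133, close to the 13.3% among those features. Detection in all 3 libraries was reached by 26 V genes in HKO and by 5 in flox/flox livers, and 4 genes (Ighv1-81, Igkv1-117, Igkv1-110 and Igkv9-124) had reads in all 6 libraries.

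The V genes with the highest mean were Ighv1-81, Igkv1-117 and Igkv1-110. The last 300 coding bases of the germline gene, on GRCm38 from the GENCODE M21 transcripts, show how alike some V genes are. Igkv1-117 (chr6:68121528-68121827, plus strand) and Igkv1-110 (chr6:68270968-68271267, plus strand) differ at 10 of these 300 bases, in capitals. For Ighv1-81 (chr12:115920279-115920578, minus strand) capitals mark the 22 bases that differ from Ighv1-85, its closest heavy V gene of equal coding length.
Igkv1-117: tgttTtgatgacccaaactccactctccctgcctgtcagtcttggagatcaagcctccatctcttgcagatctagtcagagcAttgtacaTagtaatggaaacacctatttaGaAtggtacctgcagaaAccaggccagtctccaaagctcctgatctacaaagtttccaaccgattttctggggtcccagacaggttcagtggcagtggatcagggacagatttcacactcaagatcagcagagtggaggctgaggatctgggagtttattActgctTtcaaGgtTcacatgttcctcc
Igkv1-110: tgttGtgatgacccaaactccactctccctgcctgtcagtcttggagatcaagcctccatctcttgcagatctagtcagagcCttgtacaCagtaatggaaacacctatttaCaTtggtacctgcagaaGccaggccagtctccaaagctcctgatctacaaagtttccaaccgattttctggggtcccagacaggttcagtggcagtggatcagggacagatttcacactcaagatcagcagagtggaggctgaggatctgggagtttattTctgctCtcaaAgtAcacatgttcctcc
Ighv1-81: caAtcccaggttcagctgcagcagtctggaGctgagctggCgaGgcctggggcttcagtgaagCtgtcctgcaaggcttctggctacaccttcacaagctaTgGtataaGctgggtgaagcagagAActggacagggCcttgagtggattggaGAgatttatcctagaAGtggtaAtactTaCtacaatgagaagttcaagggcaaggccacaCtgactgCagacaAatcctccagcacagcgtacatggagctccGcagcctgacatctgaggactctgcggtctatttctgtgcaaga

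Ighv1-81 (ENSMUSG00000094689) had the highest V FPKM in each HKO library. It stood at 5.59, 6.40 and 1.79 FPKM in HKO livers (38, 41 and 14 reads) and at 1.157, 0.186 and 0.936 FPKM in flox/flox livers (6, 1 and 5 reads). The groups did not overlap, but the limma test did not call the gene (log2 fold change 1.59, SE 0.41, adjusted p = 0.0503). Of its 50-base stretches 11.6% occur in other annotated genes, 14 in all. Ighv1-85, set beside it by differing bases alone, had at most 1 read per library, which says nothing of reads shared with those genes. Ighv1-81 took 16.02%, 11.7% and 5.57% of V FPKM in HKO replicates 1 to 3, while the leading V gene was Ighv1-56 in flox/flox replicate 1 (17.3%), Igkv1-117 in replicate 2 (15.0%) and Ighv1-81 in replicate 3 (17.6%).

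Igkv1-117 had 3.58, 5.15 and 1.33 FPKM in HKO livers (28, 38 and 12 reads) and 1.17, 1.13 and 0.488 FPKM in flox/flox livers (7, 7 and 3 reads), with a log2 fold change of 1.09 (SE 0.36, limma adjusted p = 0.0901). Igkv1-110 had 3.995, 3.69 and 1.23 FPKM in HKO livers (31, 27 and 11 reads) and 1.35, 0.487 and 0.491 FPKM in flox/flox livers (8, 3 and 3 reads), with a log2 fold change of 1.11 (SE 0.35, limma adjusted p = 0.0797). Neither gene was called, and HKO replicate 3 was the lowest HKO library for both. In FPKM the groups did not overlap for Igkv1-117, but they did for Igkv1-110 (1.23 in HKO replicate 3, 1.35 in flox/flox replicate 1). Over the whole transcripts 49.9% of the 50-base stretches of Igkv1-117 and 50.9% of those of Igkv1-110 are shared with another gene, so the split of reads between these genes is uncertain.

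The remaining named V genes held few reads. Iglv1, the main lambda V gene, had 9, 14 and 11 reads in HKO and 3, 3 and 0 reads in flox/flox libraries. Ighv1-26 had 6, 20 and 4 reads in HKO and 0, 1 and 0 reads in flox/flox libraries, and 49.0% of its 50-base stretches are shared. Ighv1-80 had 3, 9 and 7 reads in HKO and none in flox/flox libraries. These 3 genes were higher in every HKO library. Ighv1-56 ran the other way, with 0, 0 and 2 reads in HKO and 11, 2 and 3 reads in flox/flox libraries, the only V gene lower in every HKO library by FPKM. HKO replicate 3 and flox/flox replicate 2 held 2 reads each, so this separation rests on the FPKM scaling. Of the 50-base stretches of Ighv1-56 31.1% are shared. Ighv1-53 had 11, 7 and 0 reads in HKO and none in flox/flox libraries, and 57.6% of its 50-base stretches are shared. Igkv8-30 had 2, 11 and 3 reads in HKO and 0, 0 and 1 reads in flox/flox libraries. Ighv3-6 (4, 5 and 8 reads in HKO, 0, 4 and 0 in flox/flox), Ighv5-6 (4, 7 and 1 in HKO, 4, 0 and 1 in flox/flox) and Igkv10-96 (0, 3 and 12 in HKO, 3, 0 and 1 in flox/flox) overlapped between the genotypes.

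**Figure D5:**
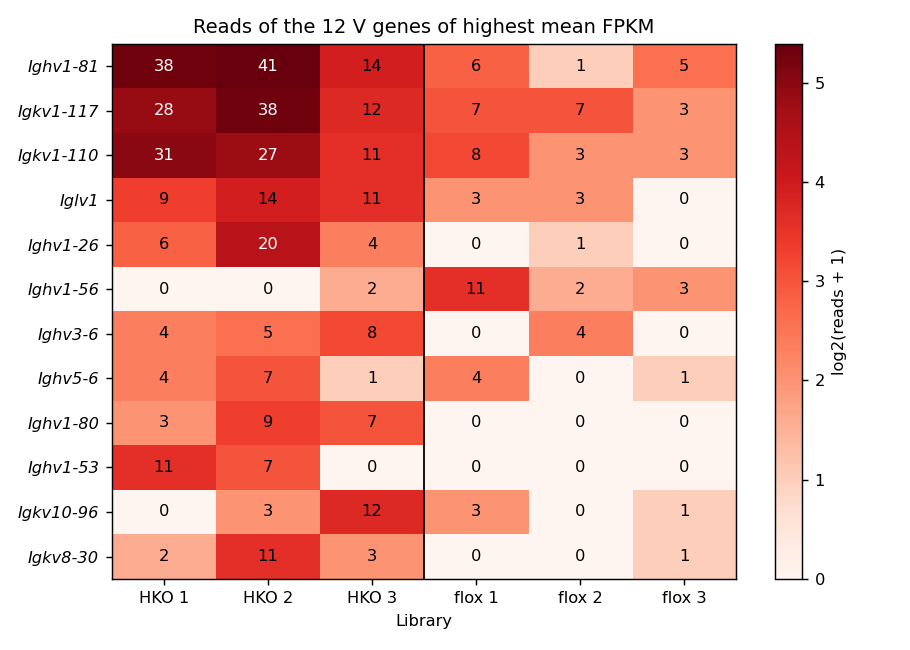
Reads on the 12 V genes with the highest mean FPKM over all libraries, as a heatmap with 1 row per gene and 1 column per HKO or flox/flox library. Ighv1-81, Igkv1-117 and Igkv1-110 hold 11 to 41 reads in each HKO and 1 to 8 reads in each flox/flox library, although Igkv1-110 overlapped between the genotypes in FPKM. Ighv1-56 has its highest value, 11 reads, in flox/flox replicate 1.

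The J segments join V to C and are very short. Those of the kappa locus lie in a row just upstream of Igkc on the plus strand of GRCm38 chromosome 6, and their last 38 bases are given here, with capitals at the bases that differ from Igkj4, since a read on so few bases weighs heavily in FPKM.
Igkj1: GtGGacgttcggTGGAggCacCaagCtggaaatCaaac
Igkj2: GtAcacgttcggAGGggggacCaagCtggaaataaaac
Igkj3: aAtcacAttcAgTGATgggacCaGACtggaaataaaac
Igkj4: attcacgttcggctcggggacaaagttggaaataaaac
Igkj5: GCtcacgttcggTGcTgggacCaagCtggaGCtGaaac

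Igkj4 (chr6:70723548-70723585) was the third member past the test. Its values were 1.36, 5.77 and 2.36 FPKM in HKO livers, which are 1, 4 and 2 reads, and it was listed at 0 in the 3 flox/flox libraries. The fitted log2 fold change of 1.92 (SE 0.36, limma adjusted p = 0.0271) depends on the pseudocount of 1 and is no bound, and 7 reads in all carry it. The gene reached the filter only through the HKO libraries. The limma adjusted p lay above 0.05 without HKO replicate 1 (0.0542), HKO replicate 3 (0.0683), flox/flox replicate 2 (0.0617) or flox/flox replicate 3 (0.0785). Igkj2 had 4, 1 and 3 reads in HKO and 0, 0 and 2 reads in flox/flox libraries (log2 fold change 1.25, SE 0.61, limma adjusted p = 0.201). All J genes together held 7, 14 and 7 reads in HKO and 0, 0 and 2 reads in flox/flox libraries. In the heavy locus Ighj4 was the highest, with 1, 1 and 2 reads in HKO and none in flox/flox libraries, and in the lambda locus only Iglj1 had reads, 2 in HKO replicate 2.

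Jchain encodes the small protein that links IgA and IgM into polymers, and lies outside the immunoglobulin loci. It was at 1.33, 2.61 and 1.07 FPKM in HKO livers and at 0.457, 0.414 and 0.496 FPKM in flox/flox livers, with no overlap. The test did not call it (log2 fold change 0.83, SE 0.22, limma adjusted p = 0.0536). Of the 18 genes of a plasma cell list, 8 were tested, and none was called, with a median log2 fold change of -0.09. Of the 18, 6 (Sdc1, Jchain, Mzb1, Slamf7, Prdm1 and Tnfrsf13b) were higher in every HKO library and 1 (Ell2) was lower in every one, against 14.8% higher and 12.8% lower among features with any read. Its most abundant member, Sdc1, the surface proteoglycan syndecan-1, stood at 105.5 ± 11.1 FPKM in HKO and 65.9 ± 21.9 FPKM in flox/flox livers (SD, n = 3 each; limma adjusted p = 0.0865). Hepatocytes also express Sdc1 and Xbp1, and the list summed to 243 to 303 FPKM in HKO and 229 to 319 FPKM in flox/flox libraries. Mzb1, a chaperone of antibody-secreting cells, stood under the filter at 0.571, 0.605 and 0.990 FPKM in HKO and 0.299, 0.360 and 0.363 FPKM in flox/flox livers.

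Markers of B cells were low in both genotypes. The 21 genes of the list summed to 7.66 to 10.5 FPKM in HKO and to 2.67 to 6.07 FPKM in flox/flox libraries, and 13 of the 21 were higher in every HKO library, against 14.8% of features with any read. Ms4a1, which encodes CD20, stood at 0.1002, 0.168 and 0.0869 FPKM in HKO and at 0.0547, 0.0211 and 0.0319 FPKM in flox/flox livers. Only Cd37 and Cd72 passed the filter, both only through the HKO values, and Cd72, an inhibitory co-receptor, rose (1.49 ± 0.179 FPKM in HKO, 0.583 ± 0.276 FPKM in flox/flox livers; log2 fold change 0.66, limma adjusted p = 0.0499). That call held without flox/flox replicate 1 and was lost without any of the other 5 libraries (limma adjusted p = 0.0891 to 0.135). None of the list's genes was at 0 in an HKO library, while 2, 4 and 1 were at 0 in flox/flox replicates 1 to 3. The 9 genes of early B cells and recombination, Rag1 among them, all stayed under the filter, with sums of 0.402 to 1.45 FPKM in HKO and 0.594 to 1.42 FPKM in flox/flox libraries.

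Genes of B cell receptor signalling, many of them shared with myeloid cells, gave 4 rises and no fall among 8 tested of 16, with a median log2 fold change of 0.50 against -0.06 over all tested features, of which 5.95% were called higher. Vav1, Pik3cd and Syk reached the filter only through the HKO values, so the count of calls and the median are no measure of the list as a set. All 4 calls were lost without HKO replicate 1, HKO replicate 2 or flox/flox replicate 3 (limma adjusted p = 0.0560 to 0.0846), 3 without HKO replicate 3 and 2 without flox/flox replicate 2. The 4 were Vav1, a guanine nucleotide exchange factor (2.82 ± 0.399 FPKM in HKO, 0.805 ± 0.306 FPKM in flox/flox; limma adjusted p = 0.0193), the lipid kinase subunit Pik3cd (2.27 ± 0.604 FPKM in HKO, 0.602 ± 0.144 FPKM in flox/flox; limma adjusted p = 0.0212), the kinase Syk (1.58 ± 0.182 FPKM in HKO, 0.511 ± 0.188 FPKM in flox/flox; limma adjusted p = 0.0265) and the phosphatase Ptpn6 (10.7 ± 0.372 FPKM in HKO, 6.26 ± 0.176 FPKM in flox/flox; limma adjusted p = 0.0165), all SD with n = 3 each. Of 12 survival factors of B and plasma cells and their receptors only Tgfb1 was tested, and it was not called (2.74 ± 0.168 FPKM in HKO, 1.52 ± 0.828 FPKM in flox/flox; limma adjusted p = 0.115).

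The receptors that bind antibodies gave 3 rises among 8 tested of 11, with a median log2 fold change of 0.93, against 5.95% called higher and a median of -0.06 over all tested features. Fcgr1 reached the filter only through the HKO values, so the count of calls and the median are no measure of the list as a set. The 3 called were Fcgr1, the high-affinity IgG receptor (3.21 ± 0.192 FPKM in HKO, 0.864 ± 0.272 FPKM in flox/flox; limma adjusted p = 0.0137), Fcgr3, a low-affinity IgG receptor (9.50 ± 1.62 FPKM in HKO, 3.11 ± 1.11 FPKM in flox/flox; limma adjusted p = 0.0210), and Trim21, a cytosolic antibody receptor (3.63 ± 0.809 FPKM in HKO, 1.63 ± 0.498 FPKM in flox/flox; limma adjusted p = 0.0394), all SD with n = 3 each. These 3 calls were lost without HKO replicate 1, HKO replicate 2 or flox/flox replicate 3 (limma adjusted p = 0.0519 to 0.0896), 2 without HKO replicate 3, and that of Trim21 without any 1 library. Pigr, the receptor that carries polymeric IgA and IgM across epithelia, stood at 299, 400 and 404 FPKM in HKO and at 411, 298 and 354 FPKM in flox/flox livers, and was not called (log2 fold change 0.05, SE 0.19, limma adjusted p = 0.873). Of the genes of lymphoid stroma and homing 2 were tested, and both changed. Vcam1, an adhesion molecule for leukocytes, rose (7.31 ± 2.02 FPKM in HKO, 2.20 ± 1.25 FPKM in flox/flox; limma adjusted p = 0.0327), and the chemokine gene Cxcl12 fell (22.4 ± 3.28 FPKM in HKO, 42.4 ± 8.16 FPKM in flox/flox; limma adjusted p = 0.0302; SD, n = 3 each). Both calls held without flox/flox replicate 1 and were lost without any of the other 5 libraries (limma adjusted p = 0.0658 to 0.0933).

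Markers of other blood and liver cells were measured in the same libraries. The 12 Kupffer cell genes summed to 445 to 591 FPKM in HKO and to 91.6 to 349 FPKM in flox/flox libraries. Of the 12, 11 were higher in every HKO library, against 14.8% of features with any read. Called higher were 3 of the 12, against 5.95% of all tested features. These were Marco, Csf1r and Folr2, with log2 fold changes of 2.46, 1.33 and 1.18. Folr2 reached the filter only through the HKO values, so the count of calls is no measure of the list as a set. These 3 calls held without flox/flox replicate 1 and were lost without any of the other 5 libraries (limma adjusted p = 0.0523 to 0.133). The 9 neutrophil genes summed to 6.19 to 12.6 FPKM in HKO and to 1.25 to 1.99 FPKM in flox/flox libraries. Of the 9, 7 were higher in every HKO library, against 14.8% of features with any read. S100a8, S100a9 and Csf3r rose, with log2 fold changes of 1.33, 1.52 and 0.99. These were the 3 genes tested, while 5.95% of all tested features were called higher. Each reached the filter only through the HKO values, so the count of calls is no measure of the list as a set. All 3 were lost without HKO replicate 1, HKO replicate 2 or flox/flox replicate 3 (limma adjusted p = 0.0560 to 0.0806), and 2 without flox/flox replicate 2. None of the 9 was at 0 in an HKO library, and 5 were at 0 in each flox/flox library. The sums of the 20 T cell genes were 6.72 to 14.3 FPKM in HKO and 3.54 to 8.03 FPKM in flox/flox libraries. No call was made among 2 tested. Zap70, the most abundant, had a lower mean in HKO (1.91 ± 0.787 FPKM) than in flox/flox livers (3.37 ± 1.53 FPKM). Every other gene of the list had a higher mean in HKO. Genes at 0 numbered 1, 0 and 1 in HKO replicates 1 to 3 and 3, 10 and 5 in flox/flox replicates 1 to 3. Of the 20 genes 6 were higher in every HKO library and none was lower in every one, against 14.8% higher and 12.8% lower among features with any read. The 7 NK cell genes summed to 1.44 to 7.34 FPKM in HKO and to 0.196 to 1.20 FPKM in flox/flox libraries, with no call for Gzma, the 1 tested.

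The summed levels of erythroid and of platelet genes overlapped between the genotypes. The erythroid genes in the table numbered 7 and summed to 123 to 380 FPKM in HKO and 171 to 218 FPKM in flox/flox libraries, with no call among 5 tested, Hbb-bs included. Alas2, an enzyme of heme synthesis, was lower in every HKO library (32.1 ± 9.46 FPKM in HKO, 55.1 ± 5.46 FPKM in flox/flox; limma adjusted p = 0.0590; SD, n = 3 each). The 5 platelet genes summed to 2.48 to 5.11 FPKM in HKO and 1.97 to 3.32 FPKM in flox/flox libraries, with no call for Pf4. Of 10 hepatocyte genes, all tested, 1, Serpina1c, was called lower (379 ± 7.97 FPKM in HKO, 755 ± 134 FPKM in flox/flox; limma adjusted p = 0.0233; SD, n = 3 each), against 6.86% of all tested features. Of the 10, 5 were lower in every HKO than in every flox/flox library, against 12.8% of features with any read, and none was higher in every one. The median log2 fold change was -0.67, against -0.06 over all tested features. The list's sum was 22566 to 43571 FPKM in HKO and 47160 to 78813 FPKM in flox/flox libraries. The Serpina1c call was lost without any 1 HKO library or flox/flox replicate 3 (limma adjusted p = 0.0609 to 0.0785), and its log2 fold change of -0.97 was -0.29 with quantile normalization. The part of these cell populations in the immunoglobulin differences was not tested.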

How the data were processed

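Whole-liver mRNA was captured on poly-T beads and read as pairs, as the labels' protocols and the series text state. Per the submitters' processing notes, HISAT2 2.0.5, featureCounts 1.5.0-p3, DESeq2 1.16.1 and GRCm38.p6 were used. The authors deposited FPKM per gene. Multiplied by gene length, 100% of values in each library were whole multiples of a common step (tolerance 0.01 read), which gave the reads quoted. The FPKM denominators equalled size factors times the geometric mean total. How reads shared by near-identical V genes were counted, and strandedness, is not given in the sources at hand. Floors of 3 reads cover counting error only.

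Groups came from the sample titles. The test was limma 3.58.1 (R 4.3.3) on log2(FPKM + 1), for 11086 features averaging 1 FPKM or more, with genotype as the only term and a variance trend with intensity (two-sided, Benjamini-Hochberg adjusted). Single values had two-sided exact permutation tests over libraries. Members and gene lists were chosen with earlier results of these data known. Named were every C gene, members past the threshold, the 12 V genes with the highest mean, the leading V gene of each library and the highest J gene of each locus. From each list up to 4 called genes were named, or the most abundant member. Jchain, Mzb1, Slamf7, Prdm1, Tnfrsf13b, Ell2, Ms4a1, Cd37, Pigr, Xbp1, Rag1, Alas2 and Igkv9-124 were named outside this rule, after their values were seen. Shared 50-base stretches were counted against all GENCODE M21 transcripts (all 268 members matched by identifier, with the same coordinates). Alternatives covered the pseudocount, filter, scaling, variance model, detection minimum, a replicate block and leaving out each library. Python 3.11.15, numpy 2.4.6, pandas 2.3.3, scipy 1.17.1 and matplotlib 3.10.9 were used, and 0 columns of sample values were left unused.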

Additional observations from a re-analysis of the deposited data

Results flagged for a closer look

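Immunoglobulin pseudogenes, which lie outside the members, had reads in 1 library. In HKO replicate 1 there were 4 reads on 2 of the 161 pseudogenes in the table, against 0 in HKO replicates 2 and 3 and 0 in each flox/flox library.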

How the results depend on the processing

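The 3 calls among immunoglobulin genes became 9 with a filter of at least 0.1 FPKM (81 members tested), 6 with no filter (152 tested) and 7 with library totals (10 tested), all higher in HKO. The whole table then gave 1321 calls of 17606, 510 of 25877 and 2436 of 11211, against 1421 of 11086. Igha and Igkc were called in each of these, Igkj4 not with no filter. With each library left out in turn the calls ranged over 0 to 5. They were 0 without HKO replicate 1 and without flox/flox replicate 3, where 4 and 5 had an unadjusted p under 0.05 and the whole table gave 60 and 30 calls by limma. They were 5 without HKO replicate 3, where Ighv1-81, Igkv1-110 and Igkv1-117 were called. Of the 17 calls in the gene lists, all 17 were lost without HKO replicate 1, HKO replicate 2 or flox/flox replicate 3. The cause was not tested. With a replicate block 2 members (Igha and Igkc) were called, the whole table gave 199 calls, and 15 of the 17 calls in the gene lists were lost (limma adjusted p up to 0.0942), those of Fcgr1 and S100a8 being kept. Voom also gave 2 members. Same-numbered libraries did not deviate together (correlations -0.0026, -0.10 and -0.07), so the numbers were not taken as pairs. The difference in V genes detected, 56, was 26.3 with at least 3 reads, 7 with at least 1 FPKM and 4.27 at 30 V reads each. Fewer V genes can pass or be drawn in these. The log2 fold change of Ighm, 0.07, ran over -0.20 to 0.30 with each library left out. It was below 0 without flox/flox replicate 1 (-0.20), HKO replicate 2 (-0.05) or HKO replicate 3 (-0.06). The 9 single values kept their direction in all 83 alternatives: the log2 ratio of the C sum was 1.61 to 2.24 and of the V sum 2.001 to 2.69, and the difference in IgA share 24.5 to 40.0 and in IgM share -47.4 to -29.0 percentage points. For values whose groups did not overlap, leaving out 1 library could not turn the direction, so those alternatives show only the size of the difference. Of 14 alternatives Igha kept its call in 12, Igkc in 11 and Igkj4 in 7. Depth limits V, J and D genes: 1 or 2 reads were held by 39 to 53 V genes in HKO and by 12 to 16 in flox/flox libraries.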

Other observations

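The heavy V genes were led by the Ighv1 family, the largest family at the locus, with 78, 117 and 55 reads in HKO and 24, 8 and 11 reads in flox/flox libraries. That was 31.1%, 31.7% and 20.8% of all V reads in HKO and 35.8%, 18.6% and 36.7% in flox/flox libraries, which overlapped. The Igkv1 family, with 10 genes, held 25.1%, 19.2% and 10.2% of V reads in HKO and 25.4%, 23.3% and 20% in flox/flox libraries, also with overlap. The Igkv4 family, with 26 genes, had 13, 27 and 15 reads in HKO and 3, 2 and 0 reads in flox/flox libraries.

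T cell receptor segments, the corresponding gene families of T cells, were scarcer. Their V genes numbered 6, 11 and 13 with a read in HKO and 6, 0 and 7 in flox/flox libraries, with overlap. Their constant genes summed to 2.39, 6.39 and 4.501 FPKM in HKO and to 1.68, 0.410 and 1.57 FPKM in flox/flox libraries, with no overlap. The ratio of Igha to Jchain FPKM was 5.47, 3.94 and 4.40 in HKO and 3.11, 2.89 and 1.44 in flox/flox libraries.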
